A study of Mus musculus with 6 samples.

Results

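The genes described here are 33 genes of glycolysis and of the response to low oxygen, given as a fixed list of symbols and matched by symbol to the 49315 Ensembl genes of the count table. All 33 were found. They were measured by RNA-seq in the medial ganglionic eminence (MGE), the ventral forebrain zone where many cortical interneurons are born, of mouse embryos at E14. The 3 WT libraries came from embryos described as Nkx2.1-Cre; Prdm16+/+; Ai14, and the 3 KO libraries from embryos described as Nkx2.1-Cre; Prdm16fl/fl; Ai14, so both groups carried the Cre and the Ai14 reporter. Nkx2.1-Cre acts in the lineage that expresses Nkx2-1, and other cells of the dissected tissue are not its target. Each library was 1 pool of 3 embryos, and p-values measure the spread between pools.

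Glycolysis splits glucose into pyruvate in a chain of cytosolic steps, and lactate dehydrogenase converts pyruvate to lactate. Many steps have several isozymes encoded by separate genes, and nervous tissue is known for its own forms, such as aldolase C and enolase 2. When oxygen is low, prolyl hydroxylases stop marking the transcription factor HIF1A for destruction, and HIF1A raises transcription of glycolytic genes, of glucose transporter genes and of Vegfa. The developing forebrain is known to rely heavily on glycolysis while its vessels grow in.

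The libraries held 33188277 to 55552298 counts. Prdm16 was at levels of 55.8, 47.0 and 45.5 CPM (read counts scaled to the library total with TMM factors) in the WT pools, numbered 1 to 3, against 53.6, 51.3 and 45.8 CPM in the KO pools in the same order, so the gene-level count did not separate the groups and each direction below rests on the label KO. The defining MGE genes Nkx2-1 (647 ± 29.4 CPM, SD, n = 3), Lhx6 (652 ± 31.2 CPM) and Lhx8 (166 ± 7.09 CPM) were present in WT. KO 1 stood apart from KO 2 and KO 3 on the second principal component (-34.99 against 11.58 and 12.4), and it had almost no Xist (1.92 CPM) where KO 3 had almost no Y-linked counts. Results for the 33 genes are therefore also given without KO 1.

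Genes for most steps of the glycolytic chain rose in the pools labelled KO, while 5 genes fell. Among these were Hk1, the larger part of the hexokinase level, and isozymes of phosphofructokinase and aldolase. By edgeR's quasi-likelihood test with adjustment over all genes (threshold 0.05), 11 of the 33 genes rose, 5 fell and 17 did not pass. That is 48.5% of the list, against 20.2% of the 18079 genes tested (9.72% higher and 10.5% lower). All KO pools lay above all WT pools for 14 of the 33 genes (20.3% of tested genes) and below them for 6 (19.6%), so 60.6% of the list did not overlap, against 39.9% of tested genes. All 33 passed the filter on low counts. The median log2 fold change was 0.06 over the list and -0.00 over all tested genes. Leaving out KO 1 gave 11 rises and 6 falls, with Eno2 added to the falls. In that fit 3752 of all 18213 genes tested were higher and 3804 lower, against 1758 and 1897 with all libraries. The list therefore stood out less from all genes there. The 11 rises were small, from 1.15-fold to 1.58-fold, and the 5 falls ran from 1.25-fold to 3.26-fold. With any 1 of the other libraries left out there were fewer rises, and fewer falls except without WT 1: 5 rises and 5 falls without WT 1, 3 and 2 without WT 2, 5 and 2 without WT 3, 4 and 2 without KO 2, and 5 and 2 without KO 3. No called gene changed direction in these fits. Only Tpi1, Pgk1, Eno1 and Aldoc were called under all 18 alternatives run.

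**Figure D1:**
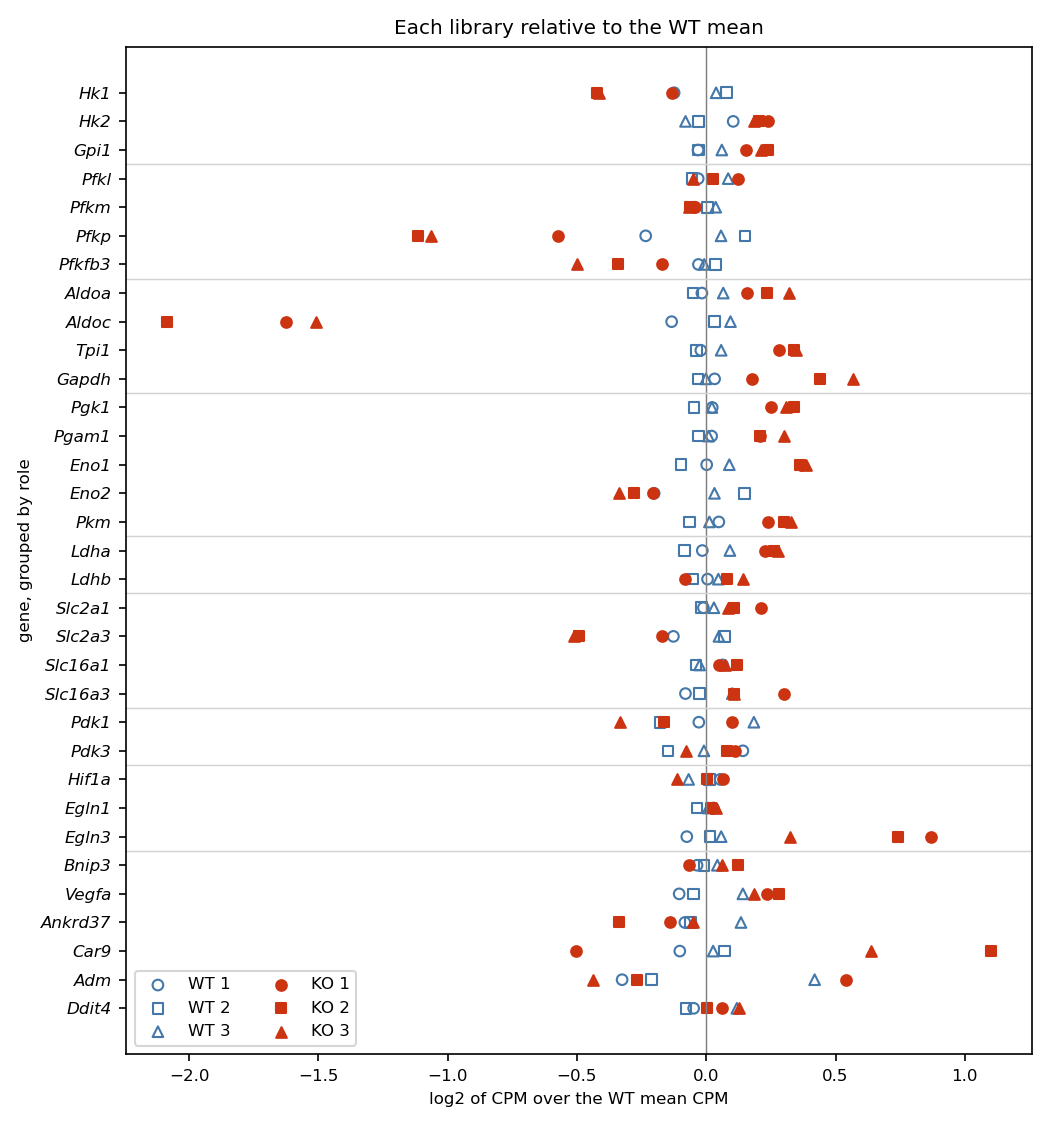
Each point is 1 library's CPM divided by the WT mean CPM of the same gene, on a log2 axis, with genes grouped by role. The libraries labelled KO lie to the right of WT for Tpi1, Gapdh, Pgk1, Eno1 and Pkm and far to the left for Aldoc and Pfkp, and KO 1 is nearest to WT in 8 of the 11 genes that rose and 4 of the 5 that fell.

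Summed levels of the marker lists did not overlap between the groups, except for the meninges; the sums were not tested. In bulk tissue, fewer cells of a type and less RNA per cell cannot be told apart. Of 10 radial glia markers 8 were higher and 1 was lower, and their summed level was 2325 to 2529 CPM in WT and 3082 to 3582 CPM in KO. Of 10 markers of postmitotic neurons 0 were higher and 2 were lower, a share like the 20.2% of all tested genes, with sums of 5133 to 5395 CPM in WT and 4675 to 5001 CPM in KO. Red cell markers (5 of 11 tested higher, 2 lower) summed to 662 to 724 CPM in WT and 1009 to 1610 CPM in KO. Brain endothelium had 0 of 12 markers higher and 3 lower, 25% called against 20.2% of all tested genes (10.5% lower). All KO pools lay below all WT pools for 7 of these 12, against 19.6% of tested genes. The endothelial markers summed to 211 to 217 CPM in WT and 166 to 189 CPM in KO. Pericytes (7 of 9 lower, 77.8%) summed to 145 to 148 and 87.2 to 123 CPM. Microglia (0 of 10 higher and 2 lower, 20% called) summed to 43.3 to 45.8 and 34.5 to 40.4 CPM. For 4 of the 10 microglia markers all KO pools lay below all WT pools. Meningeal markers (0 of 5 tested changed) summed to 19.5 CPM in each WT pool and 19.0 to 20.2 CPM in KO, and choroid plexus markers (1 of 3 tested higher, Otx2) to 11.6 to 14.2 CPM in WT and 28.1 to 35.2 CPM in KO, with Ttr, Folr1 and Kcnj13 at group means of at most 0.117 CPM. MGE markers (1 of 9 higher, 3 lower, 44.4% called) summed to 4427 to 4714 CPM in WT and 3864 to 4277 CPM in KO. Immediate early and heat shock genes (2 of 10 tested higher, 1 lower, 30% called against 20.2%) summed to 314 to 328 and 336 to 382 CPM. The part of these cell types in the values of the 33 genes was not tested.

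At the entry of the pathway the genes moved apart. Hk1, the hexokinase gene of most brain cells, had 106, 122 and 118 CPM in WT 1, 2 and 3, against 105, 86.0 and 86.6 CPM in KO 1 to 3. KO 1 lay only just below WT 1, and the other pools labelled KO were well below all WT pools. Hk1 was 1.25-fold lower (log2 fold change -0.32, SE 0.09, edgeR adjusted p = 0.0333). The inducible hexokinase gene Hk2 was at 19.5 ± 1.30 CPM in WT and 22.5 ± 0.447 CPM in KO (edgeR adjusted p = 0.0741). Gpi1, which encodes the isomerase of the next step, had 195, 195 and 207 CPM in WT and 221, 235 and 231 CPM in KO. It rose 1.15-fold (SE 0.05 on the log2 scale, edgeR adjusted p = 0.0304), and the groups did not overlap.

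The phosphofructokinase step, which commits sugar to glycolysis, had 0 of 4 genes higher and 2 lower. Of all tested genes 9.72% were higher and 10.5% lower. The platelet-type subunit gene Pfkp had 68.7, 89.6 and 84.0 CPM in WT 1, 2 and 3, against 54.3, 37.3 and 38.6 CPM in KO 1 to 3. All KO pools lay below all WT pools, and KO 1 was the nearest to them. Pfkp was 1.86-fold lower (log2 fold change -0.90, SE 0.16, edgeR adjusted p = 0.00899), and 2.11-fold lower without KO 1 (log2 fold change -1.08). Its exons share 748 bases with those of Pitrm1 on the other strand, and since the strand setting is not given, reads there cannot be told apart. Pitrm1 was lower as well (log2 fold change -0.47, edgeR adjusted p = 0.00742). The liver-type gene Pfkl and the muscle-type gene Pfkm did not pass, with log2 fold changes of 0.03 and -0.06 and 95% intervals of the fold of 0.927 to 1.13 and 0.889 to 1.04. Pfkfb3, which makes and degrades the sugar bisphosphate that stimulates phosphofructokinase, had 66.9, 70.1 and 68.0 CPM in WT and 60.7, 53.9 and 48.3 CPM in KO. The groups did not overlap and Pfkfb3 was 1.26-fold lower (edgeR adjusted p = 0.0207).

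In the aldolase and triose steps 3 of 4 genes rose and 1 fell, against 9.72% higher and 10.5% lower of all tested genes. Aldoc, the gene of the brain form of aldolase, had 10.7, 12.01 and 12.5 CPM in WT 1, 2 and 3, against 3.81, 2.77 and 4.13 CPM in KO 1 to 3. Each KO pool was far below each WT pool, and the fall of 3.26-fold was the largest of the 33 genes (log2 fold change -1.71, SE 0.15, edgeR adjusted p = 0.000167). Without KO 1 its log2 fold change was -1.74. The widely expressed aldolase gene Aldoa had 180, 176 and 190 CPM in WT and 203, 214 and 227 CPM in KO, and rose 1.18-fold (edgeR adjusted p = 0.0251).

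Tpi1, which interconverts the 2 triose phosphates, had 145, 143 and 153 CPM in WT 1, 2 and 3, against 179, 186 and 187 CPM in KO 1 to 3. The KO pools were close together and all above WT, and Tpi1 rose 1.25-fold (log2 fold change 0.32, SE 0.05, edgeR adjusted p = 0.00451). Gapdh, which oxidizes the triose and is often used as a reference gene, had 1124, 1075 and 1098 CPM in WT and 1241, 1491 and 1627 CPM in KO. It rose 1.32-fold (edgeR adjusted p = 0.0187) with KO 1 lowest of its group, and 1.42-fold without KO 1 (log2 fold change 0.51). With any 1 of the other libraries left out Gapdh lost its call (edgeR adjusted p = 0.053 to 0.0805). The count table also holds 70 annotated copies of Gapdh with near-identical sequence, whose counts summed to 0.63% of those of Gapdh.

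Of the genes of the later, ATP-yielding steps 4 of 5 rose, against 9.72% of all tested genes. Pgk1, a kinase gene on the X chromosome, had 205, 195 and 205 CPM in WT and 240, 255 and 250 CPM in KO. All KO pools were above WT, and Pgk1 rose 1.23-fold (log2 fold change 0.30, SE 0.05, edgeR adjusted p = 0.00633). With the Y-linked level of each pool as a covariate its log2 fold change was 0.30 (edgeR adjusted p = 0.00803). The mutase gene Pgam1 had 93.5, 90.2 and 92.7 CPM in WT and 106, 106 and 114 CPM in KO and rose 1.18-fold (edgeR adjusted p = 0.0154). Pkm, the pyruvate kinase gene, had 1202, 1112 and 1172 CPM in WT and 1372, 1431 and 1457 CPM in KO. It rose 1.22-fold without overlap of the groups (edgeR adjusted p = 0.015). Pkm shares 767 exonic bases with the gene model Gm49759 on the same strand, which was also higher (log2 fold change 0.25, edgeR adjusted p = 0.0205).

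Of the enolase genes Eno1 rose and Eno2 did not pass. Eno1, the common form, had 312, 291 and 332 CPM in WT 1, 2 and 3, against 402, 401 and 407 CPM in KO 1 to 3, and rose 1.29-fold (log2 fold change 0.37, SE 0.06, edgeR adjusted p = 0.00498). Eno1 can share reads with a near-identical copy, Eno1b (99.4% identity), which was at 33.5, 44.4 and 32.5 CPM in WT 1, 2 and 3 but at 0.361, 0.329 and 16.4 CPM in KO 1 to 3. Eno1b did not pass the test (edgeR adjusted p = 0.26), and its pools labelled KO fell into KO 3 with an intermediate level and KO 1 and KO 2 with almost none. With the counts of Eno1b and 2 rarer copies added, Eno1 was at 349 ± 14.5 CPM in WT and 409.5 ± 12.4 CPM in KO, a rise of 1.17-fold (log2 fold change 0.23, SE 0.06, edgeR adjusted p = 0.0253). That sum, chosen after its values were seen, still rose, but by less than Eno1 alone. Eno2, the neuron-specific enolase gene, had 25.7, 32.7 and 30.2 CPM in WT and 25.7, 24.4 and 23.4 CPM in KO. It was 1.21-fold lower and did not pass (log2 fold change -0.27, edgeR adjusted p = 0.0645), but passed without KO 1 (log2 fold change -0.30, edgeR adjusted p = 0.0213).

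Of the lactate dehydrogenase genes, Ldha, whose subunit favours lactate formation, had 181, 173 and 195 CPM in WT and 215, 219 and 222 CPM in KO. The groups did not overlap, and Ldha rose 1.195-fold (log2 fold change 0.26, SE 0.06, edgeR adjusted p = 0.0179). Ldhb, the other main subunit gene, was at 200 ± 6.91 CPM in WT and 206 ± 16.3 CPM in KO and did not pass (95% interval of the fold 0.932 to 1.15).

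**Figure D2:**
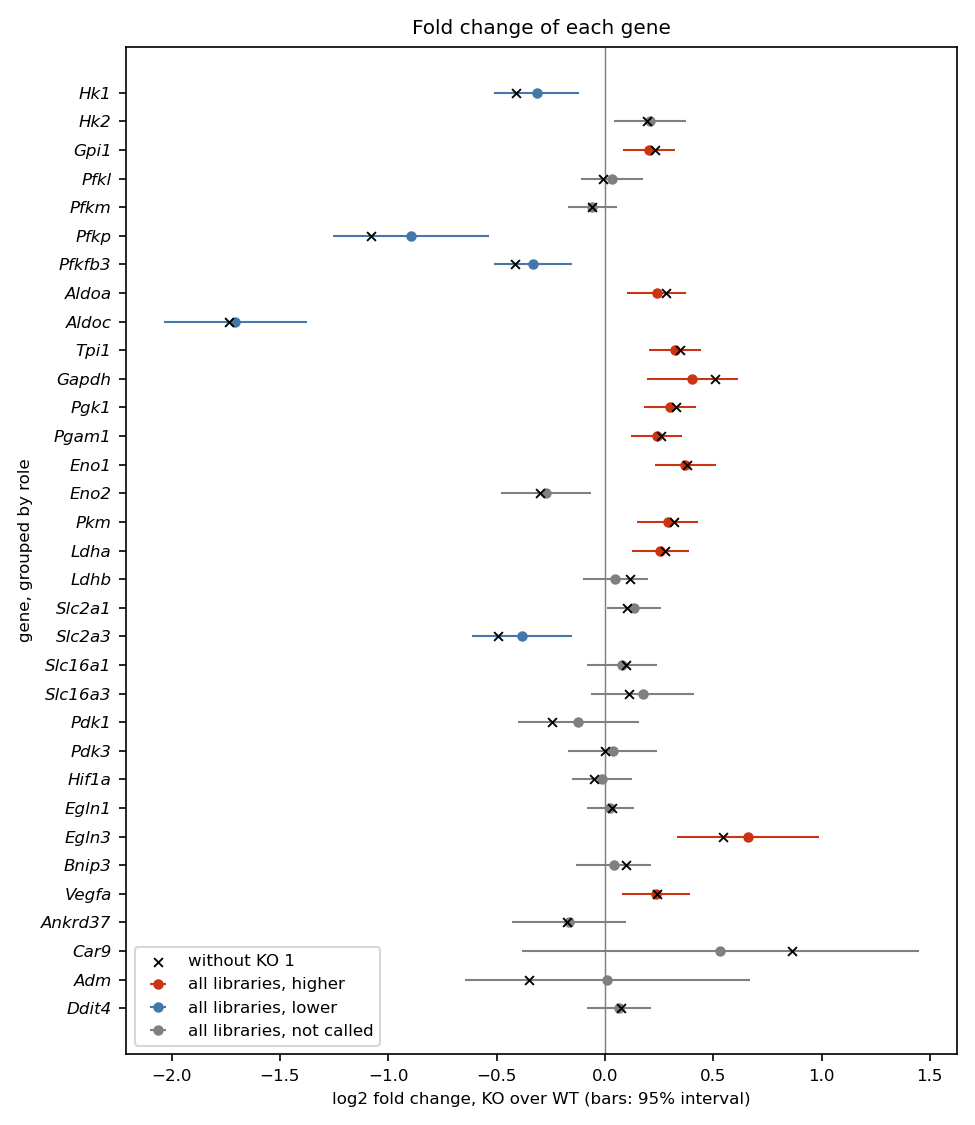
Points are log2 fold changes of KO over WT with 95% intervals from the edgeR fit, coloured by the call at an adjusted p of 0.05, and crosses are the same values without KO 1. The crosses lie on the same side of 0 as the points for all 16 called genes, and the widest intervals belong to Car9 and Adm.

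Summed over the 17 glycolytic enzyme genes, the level was higher in every pool labelled KO than in any WT pool. The sums were 4304, 4154 and 4367 CPM in WT 1, 2 and 3, against 4829, 5161 and 5348 CPM in KO 1 to 3, a ratio of group means of 1.196. Gapdh and Pkm make up most of that sum, so it describes them more than the rest. Compared per length of exon, which allows levels of different genes to be ordered, Gapdh was highest in WT at 266 CPM per kb, followed by Pkm at 232, Ldhb at 127, Pgk1 at 89.8, Aldoa at 62.5, Eno1 at 57.9, Ldha at 55.3 and Tpi1 at 53.3. Neighbours among Aldoa (SD 2.63), Eno1 (SD 3.75), Ldha (SD 3.41) and Tpi1 (SD 1.90) differed by less than 2 SD, and in KO Aldoa (73.8 ± 4.13 CPM per kb) and Eno1 (75.0 ± 0.579 CPM per kb) did so too. Of these 8 genes 7 rose and 0 fell, Ldhb being the exception. Among the other 25 genes, at lower level per kb, 4 rose and 5 fell. No share of all tested genes at such levels is given beside these counts. Among the 25, counts were few for Car9 (SE 0.41) and Adm (SE 0.29), but not for others such as Egln1 (SE 0.05) and Hif1a (SE 0.06). The part of level in these calls was not tested.

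The balance between isozymes was expressed as the share of 1 gene in the level per kb of its family. Aldoc made up 5.05%, 5.75% and 5.55% of the aldolase level in WT 1, 2 and 3, against 1.65%, 1.14% and 1.60% in KO 1 to 3. The share of Pfkp went from 9.97 ± 1.11% to 5.70 ± 1.02% of the phosphofructokinase level, in group means (SD, n = 3), while the share of Pfkl went from 30.3 ± 1.05% to 33.1 ± 0.877%. The share of Eno2 among enolases went from 9.81 ± 1.43% to 6.49 ± 0.316%, and with the copies counted as Eno1 from 8.83 ± 1.11% to 6.40 ± 0.433%. The share of Hk2 among hexokinases was 19.5 ± 2.19% in WT and 25.9 ± 1.82% in KO. Ldhb was the larger part of the lactate dehydrogenase level per kb, at 69.7 ± 0.6% in WT and 66.5 ± 1.41% in KO. Of 11 shares computed 8 had groups that did not overlap, for which the exact permutation test (two-sided) gave p = 0.1 each and a Benjamini-Hochberg value of 0.1375. With 3 pools a group that test gives no smaller p, so it cannot make a call on the shares. Among all tested genes, taken singly, 39.9% had groups that did not overlap. The shares were built from the counts of genes described above, and those of Pfkl, Pfkm and Pfkp are parts of 1 sum. They are therefore not separate evidence. The shares of Pfkm, Slc16a3 and Pdk3 overlapped between the groups.

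**Figure D3:**
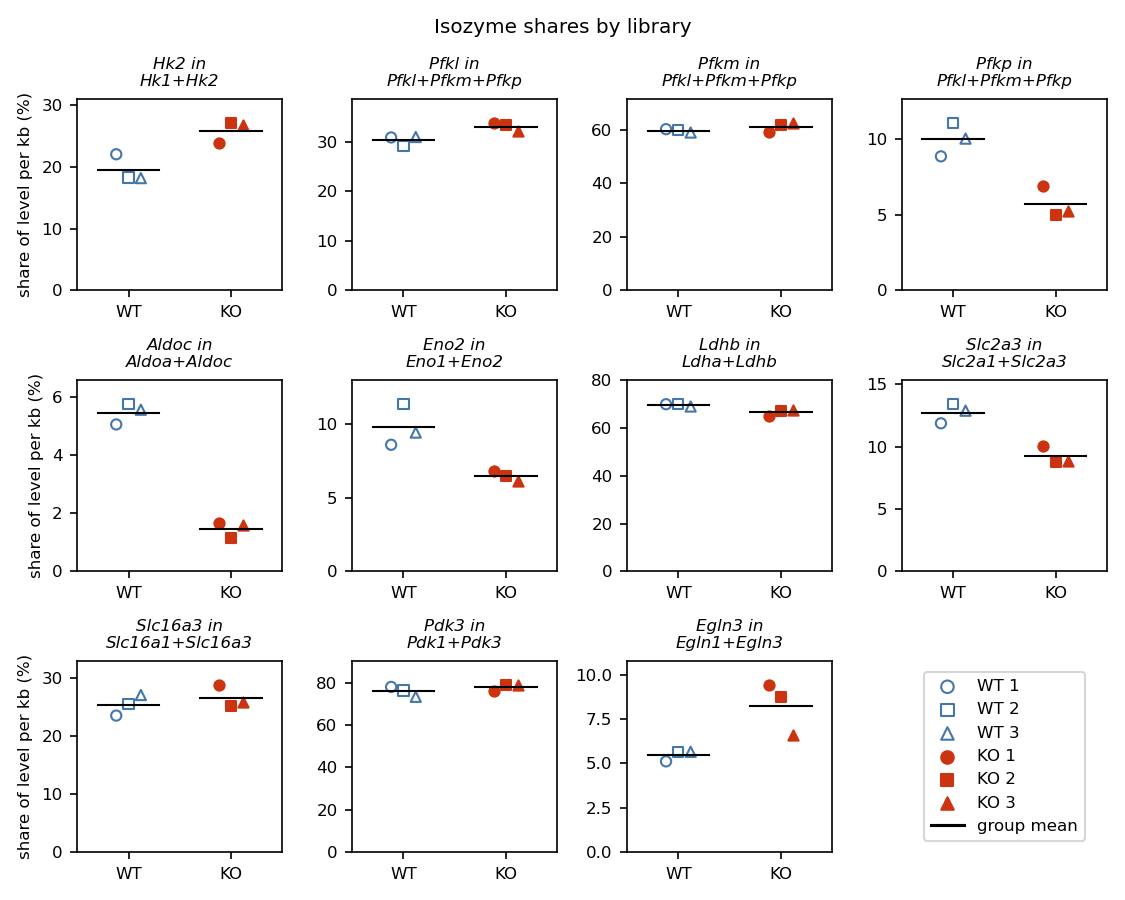
Each panel plots the share of 1 gene in the summed level per kb of its family, in percent, for each library, with lines at group means and axes from 0. Aldoc, Pfkp, Eno2 and Slc2a3 have lower shares in all pools labelled KO than in any WT pool, and Hk2 and Egln3 have higher ones.

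Of the transport genes 1 of 4 passed, a share near the 20.2% of all tested genes. Slc2a3, which encodes the glucose transporter GLUT3 of neurons, had 24.6, 28.2 and 27.8 CPM in WT 1, 2 and 3, against 23.8, 19.1 and 18.9 CPM in KO 1 to 3. KO 1 lay just below WT 1, and Slc2a3 was 1.30-fold lower (log2 fold change -0.38, SE 0.10, edgeR adjusted p = 0.0303). Slc2a1, the GLUT1 gene of brain vessels and glia, was at 88.9 ± 1.62 CPM in WT and 97.6 ± 4.60 CPM in KO and did not pass (edgeR adjusted p = 0.108). The share of Slc2a3 in the level per kb of both was 12.7 ± 0.795% in WT and 9.23 ± 0.735% in KO. The lactate transporter genes Slc16a1 and Slc16a3 did not pass, at log2 fold changes of 0.08 and 0.17, nor did the pyruvate dehydrogenase kinase genes Pdk1 (-0.12) and Pdk3 (0.04), whose products hold pyruvate back from the mitochondrion.

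Of 9 genes of the oxygen-sensing system and its targets 2 rose and 0 fell, and this 22.2% called is near the 20.2% of all tested genes. Hif1a was at 154 ± 6.55 CPM in WT and 153 ± 9.53 CPM in KO (95% interval of the fold 0.899 to 1.09), and the main prolyl hydroxylase gene Egln1 at 114 ± 2.57 CPM in WT and 116.5 ± 0.718 CPM in KO (0.943 to 1.10). HIF1A is controlled mainly through protein stability, which these counts do not measure. Egln3, a hydroxylase gene that is itself a HIF target, had 4.66, 4.96 and 5.11 CPM in WT 1, 2 and 3, against 8.96, 8.21 and 6.14 CPM in KO 1 to 3. All KO pools were above WT, with KO 3 nearest to it, and Egln3 rose 1.58-fold (log2 fold change 0.66, SE 0.15, edgeR adjusted p = 0.0158). Vegfa, the growth factor gene that draws vessels into tissue, had 73.6, 76.4 and 87.3 CPM in WT and 93.0, 96.1 and 90.0 CPM in KO. KO 3 lay only just above WT 3. Vegfa rose 1.18-fold (log2 fold change 0.23, edgeR adjusted p = 0.0431), and was called under 12 of the 18 alternatives. Among others, it lost the call with library totals in place of TMM factors (edgeR adjusted p = 0.0543) and with the replicate number as a block (edgeR adjusted p = 0.0823).

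The other hypoxia targets did not pass. Bnip3, a mitophagy gene, had a log2 fold change of 0.04, Ankrd37 of -0.17 and Ddit4, an inhibitor of growth signalling, of 0.06. Adm, which encodes the vessel-widening peptide adrenomedullin, was at 1.21, 1.31 and 2.03 CPM in WT and 2.21, 1.26 and 1.12 CPM in KO, with WT 3 and KO 1 high in groups that overlapped. Car9, a carbonic anhydrase gene and a sensitive marker of hypoxia in tumours, was barely detected, at 0.239, 0.269 and 0.261 CPM in WT and 0.181, 0.549 and 0.399 CPM in KO. Its log2 fold change of 0.53 had an SE of 0.41 (edgeR adjusted p = 0.376), with a 95% interval of the fold from 0.766 to 2.73, so a difference was not detectable at this depth. The 6 targets summed to 195 ± 15.2 CPM in WT and 213 ± 1.37 CPM in KO.

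HIF binds the hypoxia response element, whose core is ACGTG or GCGTG. Both were searched on either strand in the 250 bases before each RefSeq start (GRCm38.p6), where CACGTG counts as a match on each strand. RefSeq starts were found for 32 of the 33 genes, all but Slc2a3. A core was present before at least 1 start in 29 of 32 genes (90.6%), against 59.3% of tested genes and 41.5% of all genes with a start in that table. Counted by window, a core was present in 37 of 46 windows of the 32 genes (80.4%), against 53.3% for tested genes and 38.6% of all windows. It was present in 9 of the 11 genes that rose, in 4 of the 4 with a start that fell and in 16 of the 17 that did not pass. These counts include windows that hold annotated exon bases. For Aldoc, Pkm and Car9 no match lay in the part of a window before its first exon base. The windows with matches for Hk1, Vegfa and Pfkl began within an annotated exon. A match describes letters and is no evidence of binding. Promoters of 4 genes that rose and of Pfkp, which fell, are shown to set members of either direction side by side, 5′ to 3′ on the strand of the gene with matches in capitals, and each ends at or before the start of the transcript.
Pgk1, chrX:106186850-106187099, plus strand: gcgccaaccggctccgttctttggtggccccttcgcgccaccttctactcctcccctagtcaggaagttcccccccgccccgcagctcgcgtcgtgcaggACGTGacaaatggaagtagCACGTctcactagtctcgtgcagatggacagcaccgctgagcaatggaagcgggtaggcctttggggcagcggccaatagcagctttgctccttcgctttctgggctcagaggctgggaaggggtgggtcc
Gapdh, chr6:125165774-125166023, minus strand: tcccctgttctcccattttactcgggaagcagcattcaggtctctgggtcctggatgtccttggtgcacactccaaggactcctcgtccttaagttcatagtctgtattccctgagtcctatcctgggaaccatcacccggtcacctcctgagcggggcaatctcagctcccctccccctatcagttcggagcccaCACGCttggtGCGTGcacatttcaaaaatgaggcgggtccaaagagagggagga
Pgam1, chr19:41911621-41911870, plus strand: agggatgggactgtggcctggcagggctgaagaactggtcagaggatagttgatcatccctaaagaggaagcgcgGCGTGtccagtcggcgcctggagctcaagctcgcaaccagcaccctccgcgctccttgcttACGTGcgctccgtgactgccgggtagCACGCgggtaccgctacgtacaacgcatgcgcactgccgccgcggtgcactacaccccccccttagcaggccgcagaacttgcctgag
Egln3, chr12:54203875-54204124, minus strand: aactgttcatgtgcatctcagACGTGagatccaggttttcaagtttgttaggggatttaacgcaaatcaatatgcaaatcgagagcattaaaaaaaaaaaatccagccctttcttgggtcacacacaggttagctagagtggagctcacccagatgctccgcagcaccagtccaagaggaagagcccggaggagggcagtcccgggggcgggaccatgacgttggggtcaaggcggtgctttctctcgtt
Pfkp, chr13:6648778-6649021, minus strand: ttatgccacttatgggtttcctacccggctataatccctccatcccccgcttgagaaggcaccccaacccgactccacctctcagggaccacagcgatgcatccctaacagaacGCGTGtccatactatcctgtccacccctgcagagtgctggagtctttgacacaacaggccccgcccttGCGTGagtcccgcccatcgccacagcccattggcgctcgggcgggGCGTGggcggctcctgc
The stretch before Pfkp, which fell, holds as many capital stretches as that before Pgam1, which rose, and more than that before Egln3, which rose most.

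Neighbouring pathways were read from 6 further lists of 76 genes, of which 73 were tested. There 8 were higher, 7 were lower and 58 did not pass, which is 20.5% against 20.2% of all tested genes, and the median log2 fold change was -0.04. Of 7 genes of the pentose phosphate pathway, which branches from glycolysis to make NADPH and ribose, 4 rose and 0 fell. These were Pgls (1.24-fold, edgeR adjusted p = 0.0171), Pgd (1.13-fold, edgeR adjusted p = 0.0474), Rpe (1.25-fold, edgeR adjusted p = 0.0332) and Taldo1 (1.22-fold, edgeR adjusted p = 0.0168). Of these 4 calls 0 held without WT 1, without WT 2, without WT 3 or without KO 3, only that of Pgls held without KO 2, and all 4 held without KO 1. Of all 15 called genes in the neighbouring lists, only Pdk4, Slc2a10 and Ndrg1 were called under all 18 alternatives. Among 21 tested genes of other glycolytic isozymes and sugar transport, Pgam2, the muscle mutase gene, rose from 2.53 ± 0.299 to 3.515 ± 0.173 CPM, and 2 fell. The kinase gene Pdk4 fell from 4.69 ± 0.431 to 1.78 ± 0.37 CPM (log2 fold change -1.41, SE 0.17, edgeR adjusted p = 0.000987), with 5.07, 4.78 and 4.22 CPM in WT and 1.92, 2.06 and 1.36 CPM in KO. The transporter gene Slc2a10 fell from 5.74 ± 0.283 to 3.72 ± 0.343 CPM (edgeR adjusted p = 0.00887). Of 10 genes that bring pyruvate into the mitochondrion, Pdhb, a pyruvate dehydrogenase subunit gene, rose 1.16-fold (edgeR adjusted p = 0.0377) and 9 did not pass.

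Of 8 further regulators of the hypoxia response 0 rose and 2 fell, a share near the 20.2% called of all tested genes. Epas1, which encodes HIF2A, was 1.22-fold lower (edgeR adjusted p = 0.0482), and Arnt, the partner of both HIF proteins, 1.16-fold lower (edgeR adjusted p = 0.0245). Epas1 was called under 10 and Arnt under 11 of the 18 alternatives. Among 19 further hypoxia targets 2 rose, 3 fell and 14 did not pass, again near that share. The mitochondrial gene Higd1a (1.28-fold, edgeR adjusted p = 0.0119) and the transferrin receptor gene Tfrc (1.31-fold, edgeR adjusted p = 0.0127) rose. Ndrg1 fell from 3.42 ± 0.53 to 1.47 ± 0.204 CPM (log2 fold change -1.20, SE 0.17, edgeR adjusted p = 0.00233). The carbonic anhydrase gene Car12 (log2 fold change -0.98, edgeR adjusted p = 0.0214) and Narf (log2 fold change -0.22, edgeR adjusted p = 0.0492) were lower. Car12 was near the floor, at means of 0.786 CPM in WT and 0.4 CPM in KO, with 14 to 37 counts per library. Of 8 receptor genes for VEGF and adrenomedullin 0 passed, and Kdr, the main VEGF receptor gene of endothelium, had a log2 fold change of -0.22 (edgeR adjusted p = 0.117).

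**Figure D4:**
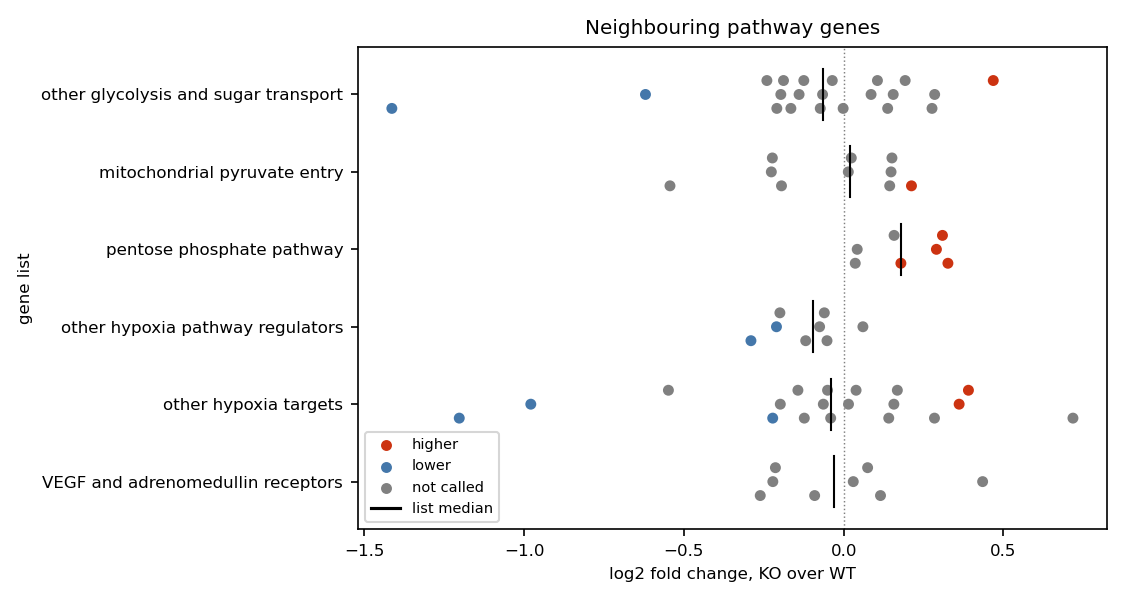
Each point is the log2 fold change of 1 tested gene in 1 of 6 neighbouring lists, coloured by the call at an adjusted p of 0.05, with a line at the list median. The pentose phosphate list lies wholly to the right of 0, and the lowest points are Pdk4, Ndrg1 and Car12, the last with 14 to 37 counts per library.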

How the data were processed

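The submitters' processing notes name DESeq2, featureCounts, Subread 1.5.2, STAR 2.5.2b, Trimmomatic 0.36 and the build GRCm38; for the annotation release and the strand setting, nothing is given in the sources used here. The authors deposited raw counts of reads per gene, 1 column for each of 6 libraries, which were used here; their normalized table was not used. Symbols and exonic lengths came from GENCODE M21. The 18079 genes passing filterByExpr (minimum count 10, total 15) entered edgeR 4.0.16 (R 4.3.3): robust quasi-likelihood fit, TMM factors, Benjamini-Hochberg adjustment over all of them, unpaired. SE is the log2 fold change divided by the root of the F statistic. Errors are SD over 3 pools.

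In simulated counts for KO against WT (17845 genes), the test recovered 76% of 1.5-fold and 100% of 2-fold changes; most changes reported here are below 1.5-fold. The 33 genes and all lists were chosen with earlier results of these data known. Called genes, and uncalled ones at 1.2-fold or more, are given per library, and called genes of neighbouring lists are named. Copies were found with blastn at 95% identity; promoters are RefSeq's. Alternatives were scaling, filters, DESeq2 1.42.0, limma voom (limma 3.58.1), no robust spread, a replicate block, a Y-linked covariate, protein-coding genes alone and each library left out; adding copies was chosen after seeing the data.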

Additional observations from a re-analysis of the deposited data

How the results depend on the processing

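Over the 33 genes and 18 alternatives, 537 of 593 pairs of a gene and an alternative had the same call as reported, while in 52 the call was lost, in 4 it was gained and in 0 a called gene changed direction; some uncalled values near 0, such as that of Pdk3, changed sign. Among the named genes of neighbouring lists 196 of 269 pairs kept the call and 73 lost it. Pfkp lost its call with no filter on low counts (log2 fold change -0.88, adjusted p = 0.0651). Eno2 gained it with no filter, with DESeq2, without WT 1 and without KO 1. With 1 library left out, the count of the 33 genes called higher ran from 3 to 11 and lower from 2 to 6, neighbouring genes higher from 0 to 17 and lower from 3 to 21, and all genes higher from 464 to 3752 and lower from 727 to 3804, with the highest counts of all genes without KO 1; each such fit has fewer samples. With the replicate block, 862 of all genes were higher and 1219 lower, 9 and 3 of the 33 genes, and 4 and 3 of the neighbouring genes. Hk1, Gpi1, Slc2a3 and Vegfa lost their calls in the block fit. Libraries that share a number did not deviate together (correlations of -0.08, -0.12 and 0.03), and the labels do not pair them. With the Y-linked covariate 5 neighbouring genes were higher. Without length scaling the KO minus WT differences of the shares of Pfkl, Pfkm, Pfkp, Aldoc and Slc2a3 moved by more than 1 SD and kept their direction; the levels of the shares depend on the scaling too, and in CPM Ldhb (206 CPM) was below Ldha (219 CPM) in KO. Depth limits Car9, with 8 to 22 counts per library; Adm, with 44 to 98, had the next widest interval, and its pools differed within both groups.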
